A study of Mus musculus with 8 samples.

Results

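The voltage-gated calcium channels, the voltage-gated sodium channels and the HCN channels were examined as 41 genes of the 45706 in the count table. They were chosen by symbol: every gene whose GRCm38 symbol begins with *Cacna*, *Cacnb*, *Cacng* or *Cacna2d*, or with *Scn* or *Hcn* and a digit. This pattern met 44 symbols, of which *Cacng2*, *Cacng3* and *Cacng8*, auxiliary subunits of AMPA receptors, were set aside. The set held 10 alpha1, 4 alpha2delta, 4 beta and 5 gamma genes of the calcium channel families, 10 alpha and 4 beta genes of the sodium channels, and 4 HCN genes. At least 10 counts in at least 4 of the 8 wells were reached by 36 of the 41 genes, namely by 9 of the 10 alpha1 genes, 4 of the 5 gamma genes, 7 of the 10 sodium channel alpha genes and every gene of the other classes. *Cacna1f*, *Cacng1*, *Scn4a*, *Scn9a* and *Scn10a* fell short of it.

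The RNA came from hippocampal neurons cultured from C57/Bl6 wild type mice at embryonic day 18 and exposed for 4 h either to vehicle (water) or to 1 µM melanin-concentrating hormone (MCH), a peptide made by hypothalamic neurons. Each treatment had 4 wells, numbered as replicates 1 to 4, and the comparison asks which transcripts differ after MCH. The study used 2 cultures with 2 wells per treatment in each, but the labels do not give the culture of a replicate number, so the p-values measure the spread between wells. All 8 samples carry an Alzheimer's disease model tag beside the wild-type genotype, and no mutant cells were among them.

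Library totals ran from 26083936 to 31844861 estimated counts, with medians of 27320653 in vehicle and 28287671 in MCH wells. The neuronal label fitted the markers: 10 neuronal markers summed to between 7718 and 8505 CPM (counts scaled to library size) in every well, 8 microglial markers summed to between 5.91 and 13.7 CPM, and 9 oligodendrocyte lineage markers to between 57.4 and 147.5 CPM, with *Sox10* and *Mog* at 0. Wells differed in a second way. In both treatments, replicates 1 and 2 stood apart from replicates 3 and 4 on a first principal component holding 59.8% of the variance around the treatment means. The 9 astrocyte markers summed to between 1098 and 1209 CPM in replicates 1 and 2 and to between 2348 and 2683 CPM in replicates 3 and 4. In bulk RNA, fewer cells of a type and less RNA per cell cannot be told apart.

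A voltage-gated calcium channel is built around a pore-forming alpha1 subunit, which sets the current type: L-type for *Cacna1c*, *Cacna1d*, *Cacna1s* and *Cacna1f*, P/Q-type for *Cacna1a*, N-type for *Cacna1b*, R-type for *Cacna1e*, and the low-voltage-activated T-type for *Cacna1g*, *Cacna1h* and *Cacna1i*. The alpha2delta and beta subunits carry the pore to the membrane and tune its gating. Sodium channel alpha subunits open the action potential at the axon initial segment, with beta subunits as membrane-spanning partners, and HCN channels pass a cation current on hyperpolarisation and are opened further by cyclic AMP.

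Several of the calcium channel pores are made in alternative versions through pairs of neighbouring coding exons of which a transcript holds only one. Pairs were sought by a rule: coding exons of equal length, at least 80 bases long and within 5000 bases of each other, that no transcript of the gene combined. GENCODE vM21 transcripts on GRCm38 held 4 pairs in the alpha1 genes that met it. The rule alone does not show that both exons of a pair code for versions of the same protein segment. The pairs of *Cacna1c* and *Cacna1d* are shown because their versions could be followed in the transcript estimates. In these L-type genes the pair codes for the last membrane segment of the first domain, which lines the pore. All sequences are given 5′ to 3′ on the gene's strand, and capitals mark the bases at which the members of a pair differ.

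In *Cacna1c* (minus strand) the upstream exon lies at chr6:118742265-118742368 and the downstream one at chr6:118741871-118741974, and 32 of 104 bases differ. In *Cacna1d* (minus strand) they lie at chr14:30171956-30172059 and chr14:30171296-30171399, with 22 of 104 bases differing.
Cacna1c upstream exon: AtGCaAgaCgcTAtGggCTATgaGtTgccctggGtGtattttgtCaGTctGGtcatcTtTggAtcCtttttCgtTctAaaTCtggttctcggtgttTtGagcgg
Cacna1c downstream exon: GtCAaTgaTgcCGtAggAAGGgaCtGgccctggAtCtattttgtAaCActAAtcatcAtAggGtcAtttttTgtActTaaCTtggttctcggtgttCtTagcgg
Cacna1d upstream exon: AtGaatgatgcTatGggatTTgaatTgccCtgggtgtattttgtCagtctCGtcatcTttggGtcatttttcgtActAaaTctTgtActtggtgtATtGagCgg
Cacna1d downstream exon: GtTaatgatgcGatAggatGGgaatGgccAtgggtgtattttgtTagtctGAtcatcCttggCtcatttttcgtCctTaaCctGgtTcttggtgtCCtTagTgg

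Levels were compared between genes only per length, in TPM (the share of a library's transcripts after scaling by transcript length) summed over the transcripts of a gene. Some sums leaned on very short transcript models, so levels are also given over transcripts of at least 500 bases or, chosen after seeing the data, at least 2000 bases where a class order leaned on them. Among the alpha1 genes, *Cacna1b* had 70.8 ± 12.03 TPM and *Cacna1a* 64.2 ± 4.91 TPM (SD, n = 8 wells), and their ranges overlapped. A model of 308 bases, resting on between 22.0 and 47.5 estimated reads per well, gave 30.9 TPM of the *Cacna1b* level. Without transcripts under 500 bases, *Cacna1b* had 39.6 ± 5.93 TPM (SD, n = 8 wells), and all 8 of its values, 31.9 to 50.4 TPM, lay below those of *Cacna1a*, 58.3 to 75.4 TPM. A noncoding *Cacna1a* model of 549 bases gave 34.996 TPM, or 54.5% of the level of that gene, on between 142.6 and 230.4 estimated reads per well. Over transcripts of at least 2000 bases, *Cacna1b* had 32.6 ± 4.16 TPM and *Cacna1a* 26.8 ± 1.39 TPM, again with overlapping ranges. The order of the presynaptic N-type and P/Q-type pores thus depended on a short model in each gene.

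Among the other alpha1 genes and over transcripts of at least 500 bases, *Cacna1e* had 26.4 ± 4.38 TPM, *Cacna1h* 23.9 ± 5.04 TPM and *Cacna1c* 22.7 ± 2.19 TPM (SD, n = 8 wells), and the ranges of these neighbours overlapped. At 2000 bases or more, *Cacna1e* had 26.4 ± 4.40 TPM and overlapped both presynaptic pores. Over transcripts of at least 500 bases *Cacna1i* had 13.1 ± 2.47, *Cacna1g* 10.9 ± 1.56 and *Cacna1d*, the second neuronal L-type pore, 7.56 ± 0.69 TPM (SD, n = 8 wells). The muscle L-type gene *Cacna1s* reached 0.58 ± 0.31 TPM and the retinal L-type gene *Cacna1f* 0.07 ± 0.10 TPM, with 1 to 10 counts per well.

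Among the genes kept here, each auxiliary class had a clear leader apart from the beta class. *Cacna2d3* had 78.6 ± 4.03 TPM, *Cacna2d1* 57.0 ± 3.95 TPM and *Cacna2d2* 15.1 ± 2.08 TPM (SD, n = 8 wells), without overlap between neighbours, and *Cacna2d4* trailed at 0.90 ± 0.18 TPM over transcripts of at least 500 bases. *Cacng7*, like *Cacng5* a gamma subunit that also joins AMPA receptors, made up 67.5% ± 3.35 of the TPM of the 5 gamma genes kept. *Cacng2*, *Cacng3* and *Cacng8* are not in that total. *Cacng4* held 19.7% ± 1.65 and *Cacng5* 12.6% ± 2.22 of the same total. *Cacng4* fell from 43.4 to 37.6 TPM over transcripts of at least 500 bases. *Cacng6* had 0.52 ± 0.17 TPM and the muscle gene *Cacng1* 0 to 3 counts per well.

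Among the beta genes the order hung on transcript length. *Cacnb4* led with 125 ± 38.5 TPM (SD, n = 8 wells), but 73.6% of it came from models under 500 bases that held 0.35% of the gene's estimated reads. Over longer transcripts *Cacnb3* led with 95.2 ± 6.46 TPM, followed by *Cacnb1* with 84.3 ± 2.88, *Cacnb2* with 43.1 ± 4.78 and *Cacnb4* with 32.9 ± 2.36 TPM. The ranges of *Cacnb3* and *Cacnb1* overlapped, and those of *Cacnb1* and *Cacnb2* did not.

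*Scn2a* was the leading sodium channel pore, with 100.1 ± 6.61 TPM and 56.4% ± 4.23 of the alpha TPM (SD, n = 8 wells). *Scn8a* had 46.7 ± 14.6 TPM, or 31.6 ± 3.77 TPM over transcripts of at least 500 bases. *Scn1a* and *Scn3a* overlapped at 16.0 ± 1.97 and 14.5 ± 2.26 TPM, and over transcripts of at least 500 bases *Scn3a* had 12.3 ± 1.09 TPM with the ranges just overlapping. *Scn7a* had 0.34 ± 0.15 TPM and *Scn11a*, best known from sensory neurons, 0.23 ± 0.16 TPM. The skeletal muscle gene *Scn4a* had 0 or 1 count per well, the sensory neuron gene *Scn10a* 0 to 2 and *Scn9a* 3 to 12, levels at which no difference between treatments was detectable at this depth.

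Among the sodium channel beta genes, *Scn2b* had 86.3 ± 3.60 TPM and *Scn3b* 73.5 ± 4.33 TPM (SD, n = 8 wells), without overlap. *Scn4b* had 0.17 ± 0.06 TPM. Among the HCN genes *Hcn2* had 63.8 ± 2.18 TPM, above *Hcn3* with 44.4 ± 4.67 TPM in every well. A retained intron model of 909 bases gave 27.2% of the *Hcn3* level, which was 31.2 ± 3.51 TPM over transcripts of at least 2000 bases. *Hcn4*, the main pacemaker isoform of the heart, had 9.49 ± 0.79 TPM. The leading genes of each class kept wide gaps to the low ones in every well.

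**Figure D1:**
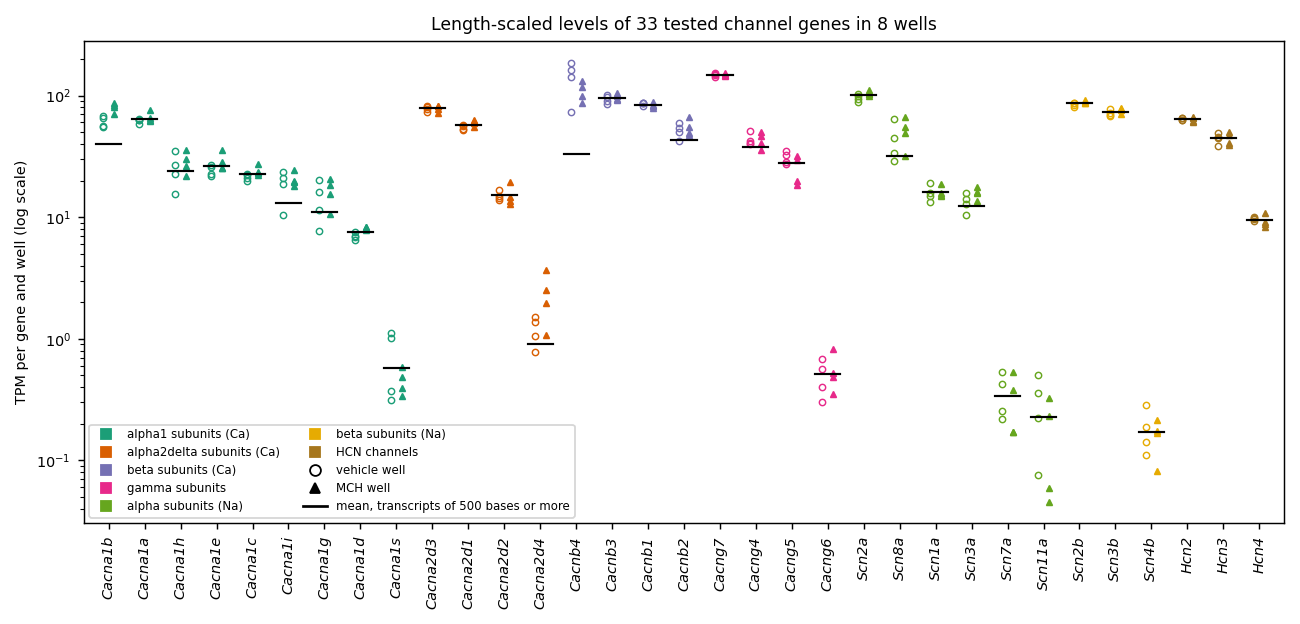
TPM per gene (log axis) of 33 tested channel genes in each of the 4 vehicle wells (open circles) and 4 MCH wells (triangles), coloured by class, with the mean over transcripts of at least 500 bases as a black line. *Cacng7*, *Cacnb4* and *Scn2a* have means of 100.1 TPM or more, the black lines of *Cacnb4* and *Cacna1b* fall far under their points, and *Cacna1s*, *Cacng6*, *Scn7a*, *Scn11a* and *Scn4b* lie around or under 1 TPM.

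No channel gene passed the test for MCH against vehicle. Over the 14962 genes tested on counts, the quasi-likelihood test of edgeR, adjusted by Benjamini-Hochberg, called 35 genes at an adjusted p under 0.05, a background of 0.234%, and 0 of the 36 channel genes. Unadjusted p-values under 0.05 were held by 3 of the 36, beside 8.5% of all genes tested, and the 3 were the alpha1 genes *Cacna1d*, *Cacna1h* and *Cacna1b*. DESeq2, limma voom and edgeR with a transcript length offset also called 0 of them, beside backgrounds of 1.25%, 0.207% and 0.0468%. The median log2 fold change was −0.0027 over the 36 channel genes and −0.0027 over all genes tested. By class it was 0.16 for the alpha1 genes, 0.04 for alpha2delta, 0.0031 for the calcium channel beta genes, −0.02 for gamma, −0.00023 for the sodium channel alpha genes, 0.01 for their beta genes and −0.05 for HCN.

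Both treatments carry the same replicate numbers, so the test was repeated with that number as a block. Same-numbered wells deviated together from the treatment means, at correlations of 0.445 to 0.545. Different numbers within replicates 1 and 2 or within replicates 3 and 4 did so too, at 0.475 to 0.521, so no pairing by number beyond that division was shown. The block called 2 of the 36 channel genes, *Cacna1d* and *Cacna1i*, both higher with MCH, beside 3.98% of all genes tested called in either direction and 1.73% called higher. With the division into replicates 1 and 2 and replicates 3 and 4 as the block, edgeR called *Cacna1d* alone, beside 4.46% of all genes called and 1.85% called higher, and DESeq2 called *Cacna1b* and *Cacna1d* higher and *Cacng5* lower, beside 5.0% called, 2.16% higher and 2.84% lower. With counts this small beside such backgrounds, nothing particular to the channel genes is read from them. Without MCH replicate 1 the edgeR block on the division called 1 gene, *Scn3b*, beside 3.66%, and without replicate 1 of either treatment the replicate block called 0, beside 2.96%.

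**Figure D2:**
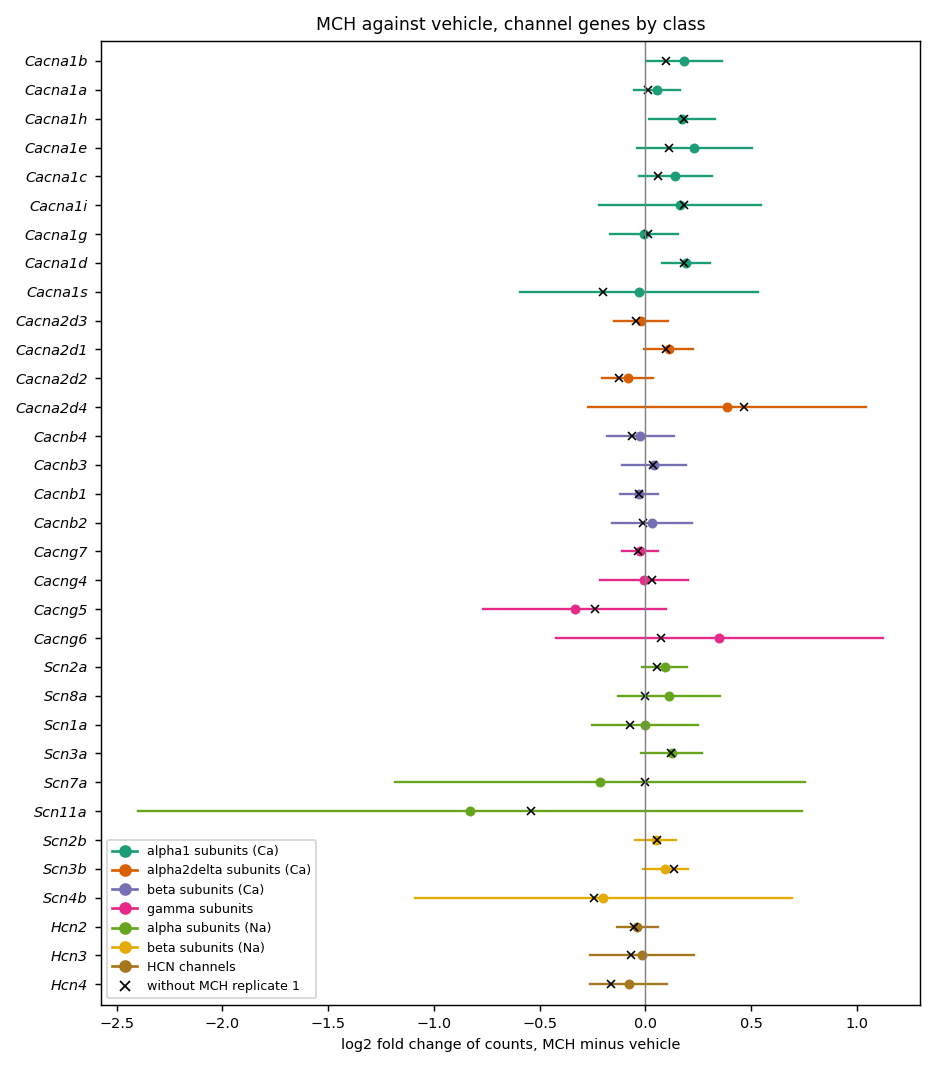
Log2 fold change of counts, MCH minus vehicle, for 33 tested channel genes by class, from edgeR without a block, with 95% confidence intervals as bars and the value without MCH replicate 1 as a cross. The intervals of *Cacna1d*, *Cacna1h* and *Cacna1b* leave 0 out, the widest belong to the low genes *Scn11a*, *Scn7a* and *Scn4b*, and the crosses of *Cacna1e*, *Cacna1b* and *Scn8a* move towards 0.

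*Cacna1d* had the smallest p of the set. Its counts were 35.3, 33.6, 38.5 and 35.8 CPM in vehicle replicates 1 to 4 and 41.7, 40.8, 39.3 and 41.7 CPM in MCH replicates 1 to 4. All 4 MCH wells lay above all 4 vehicle wells, which held for this channel gene alone and in this direction for 3.07% of all genes tested. Its mean was 35.8 ± 2.06 CPM in vehicle and 40.9 ± 1.16 CPM in MCH (SD, n = 4 wells). This is 0.19 on the log2 scale (SE 0.05, 95% confidence interval 0.08 to 0.30; edgeR adjusted p = 0.26). The edgeR adjusted p was 0.036 with the replicate block and 0.022 with the block on the division, and 0.061 in that second fit without MCH replicate 1.

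*Cacna1c*, the other L-type pore of these neurons, had 136.9, 123.0, 136.5 and 136.8 CPM in vehicle and 171.7, 142.6, 134.6 and 138.8 CPM in MCH replicates 1 to 4. MCH replicate 1 stood high and replicate 3 lay within the vehicle values. Between treatments the log2 fold change was 0.14 (95% confidence interval −0.03 to 0.31; edgeR adjusted p = 0.69), and 0.06 without MCH replicate 1. *Cacna1s*, at about 1 CPM, had a log2 fold change of −0.03 with an interval from −0.59 to 0.53.

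*Cacna1b* counted 153.9, 151.3, 153.7 and 150.5 CPM in vehicle and 202.6, 177.1, 158.5 and 153.0 CPM in MCH replicates 1 to 4. The vehicle wells were nearly level, and the MCH wells spread upwards from them, the fourth lying between vehicle values. The means were 152.3 ± 1.71 and 172.8 ± 22.4 CPM (SD, n = 4 wells), with a log2 fold change of 0.18 (95% confidence interval 0.0032 to 0.36; edgeR adjusted p = 0.58). It was 0.10 without MCH replicate 1. DESeq2 with the block on the division gave an adjusted p of 0.028.

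*Cacna1a*, the P/Q-type pore, had 129.6, 125.3, 125.1 and 125.0 CPM in vehicle and 142.8, 131.4, 128.1 and 122.3 CPM in MCH replicates 1 to 4. The lowest of all 8 wells was an MCH well. Its log2 fold change was 0.06 (95% confidence interval −0.05 to 0.16; edgeR adjusted p = 0.85). *Cacna1e*, the R-type pore, had 181.0, 173.7, 213.1 and 203.0 CPM in vehicle and 281.7, 224.3, 198.3 and 200.8 CPM in MCH replicates 1 to 4. MCH replicates 1 and 2 exceeded every vehicle well, and MCH replicates 3 and 4 lay under vehicle replicates 3 and 4. The log2 fold change of *Cacna1e* was 0.23 (95% confidence interval −0.04 to 0.50; edgeR adjusted p = 0.67), and 0.11 without MCH replicate 1.

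Among the T-type pores, *Cacna1h* had 67.9, 71.1, 86.5 and 75.5 CPM in vehicle and 83.1, 87.7, 86.3 and 82.1 CPM in MCH replicates 1 to 4. The treatments overlapped through vehicle replicate 3. MCH minus vehicle came to 0.17 on the log2 scale (95% confidence interval 0.02 to 0.33; edgeR adjusted p = 0.54). *Cacna1i* had 52.1, 48.0, 75.6 and 65.5 CPM in vehicle and 65.5, 53.8, 77.3 and 73.8 CPM in MCH replicates 1 to 4. Each MCH well exceeded the vehicle well of its number, although the groups overlapped widely. The log2 fold change of *Cacna1i* was 0.16 (95% confidence interval −0.22 to 0.55; edgeR adjusted p = 0.89), with an edgeR adjusted p of 0.036 under the replicate block and 0.18 in that fit without replicate 1 of either treatment. *Cacna1g* had a log2 fold change of −0.0051, with an interval from −0.17 to 0.16.

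Summed over the 10 alpha1 genes and over transcripts of at least 500 bases, the vehicle wells had 194.5, 187.0, 208.3 and 202.1 TPM and the MCH wells 233.4, 218.9, 219.6 and 208.6 TPM. The treatments did not overlap, but vehicle replicate 3 and MCH replicate 4 stood 208.3 against 208.6 TPM. Over all transcripts they did not overlap, with 209.7 to 249.2 TPM in vehicle and 261.1 to 295.8 TPM in MCH wells. Over transcripts of at least 2000 bases they overlapped, with 132.0 to 152.0 TPM in vehicle and 149.7 to 178.6 TPM in MCH wells. At that length the sodium channel beta sums did not overlap, with 147.5 to 152.8 TPM in vehicle and 154.3 to 166.3 TPM in MCH wells. Over transcripts of at least 500 bases those beta sums overlapped. Of the 9 alpha1 genes tested, 7 had a log2 fold change above 0, and 8 did so without MCH replicate 1, when the median of the class was 0.10. Of the 7 glutamatergic neuron markers, 6 had a log2 fold change above 0, with a median of 0.08, and edgeR called 0 of the 7 without a block, 2 with the replicate block and 1 with the block on the division, beside 0.234%, 3.98% and 4.46% of all genes. Of the 9 inhibitory neuron markers, 7 had a log2 fold change below 0, with a median of −0.09, and edgeR called 0, 1 and 1 in the same fits. Their part in the alpha1 values was not tested.

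**Figure D3:**
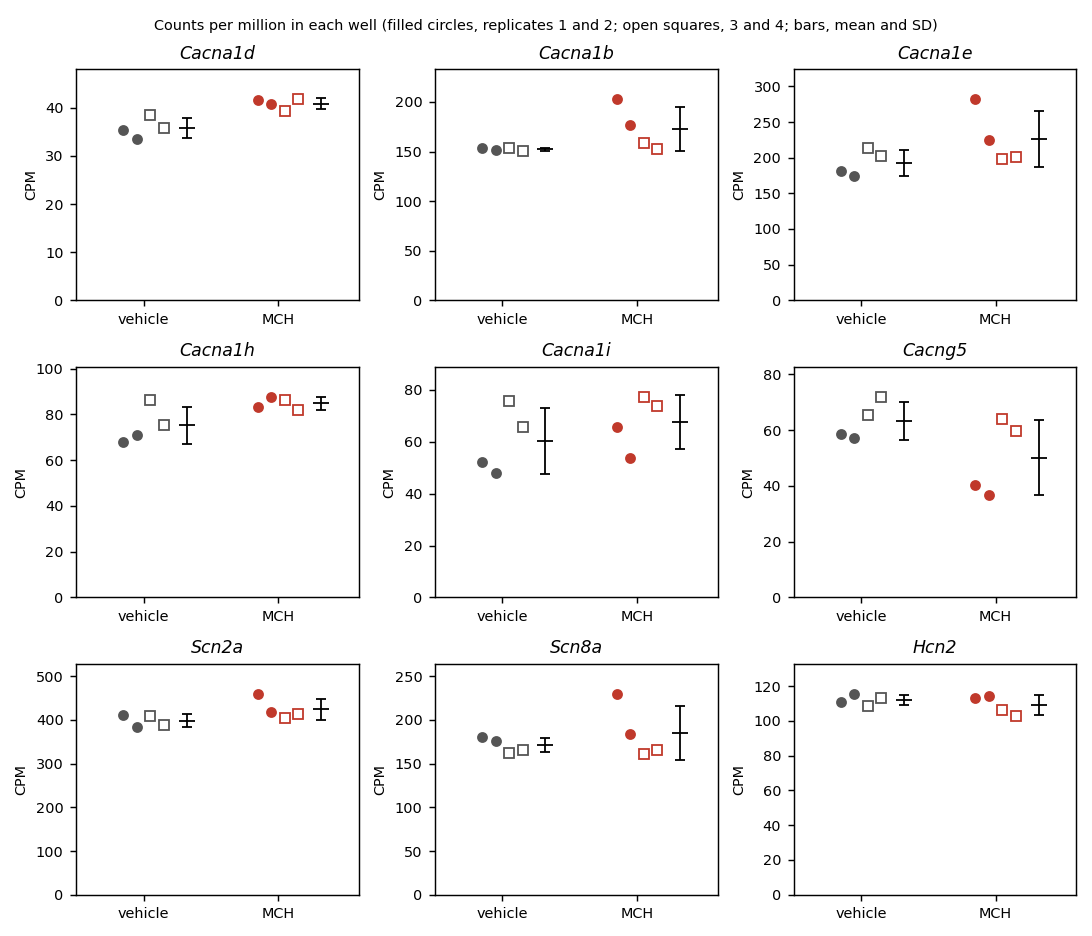
CPM in each well for 9 channel genes, vehicle in grey and MCH in red, with replicates 1 and 2 as filled circles, replicates 3 and 4 as open squares, and the mean with its SD (n = 4 wells) beside them. *Cacna1d* has every MCH well above the vehicle wells, while in *Cacna1e* and *Cacng5* the MCH wells that leave the vehicle range are replicates 1 and 2, and in *Cacna1b* these 2 and replicate 3.

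None of the auxiliary calcium channel genes passed the test in edgeR without a block. *Cacna2d1*, the gabapentin receptor subunit, had 200.6, 181.3, 197.2 and 190.5 CPM in vehicle and 213.9, 220.2, 191.0 and 205.9 CPM in MCH replicates 1 to 4, overlapping through MCH replicate 3. Its log2 fold change was 0.11 (95% confidence interval −0.0056 to 0.23; edgeR adjusted p = 0.61). *Cacna2d2* had 42.1, 43.0, 41.5 and 44.7 CPM in vehicle and 44.1, 37.8, 39.9 and 39.7 CPM in MCH, so that 3 MCH wells lay under the vehicle range and replicate 1 lay within it. For *Cacna2d2* the log2 fold change was −0.08 (95% confidence interval −0.20 to 0.04; edgeR adjusted p = 0.76). *Cacna2d4* had 1.28, 0.94, 1.80 and 2.15 CPM in vehicle and 1.69, 1.502, 2.21 and 2.67 CPM in MCH replicates 1 to 4. These low values overlapped and gave a log2 fold change of 0.39 with a wide interval from −0.27 to 1.04. *Cacna2d3*, the most abundant of the class, had a log2 fold change of −0.02 with an interval from −0.15 to 0.11. The 4 beta genes ranged from −0.03 for *Cacnb1* to 0.04 for *Cacnb3*.

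*Cacng5* had the log2 fold change farthest from 0 among the tested members above 5 CPM. It had 58.6, 57.1, 65.3 and 71.9 CPM in vehicle and 40.2, 36.9, 63.9 and 59.5 CPM in MCH replicates 1 to 4. MCH replicates 1 and 2 lay under every vehicle well, and MCH replicates 3 and 4 lay among the vehicle values. The means were 63.2 ± 6.82 and 50.1 ± 13.6 CPM (SD, n = 4 wells), with a log2 fold change of −0.33 (95% confidence interval −0.77 to 0.10; edgeR adjusted p = 0.71). DESeq2 with the block on the division gave an adjusted p of 6.7e-05, and edgeR with the same block 0.11. *Cacng7* and *Cacng4* had log2 fold changes of −0.03 and −0.0070, and *Cacng6*, under 1 CPM, one of 0.35 with an interval from −0.42 to 1.12.

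The sodium channel genes held no call in any fit on all 8 wells, with 4 of the 7 tested alpha genes under 0 in log2 fold change. *Scn2a* had 411.9, 384.1, 409.4 and 387.2 CPM in vehicle and 459.3, 418.6, 404.2 and 413.7 CPM in MCH replicates 1 to 4. MCH replicate 3 lay within the vehicle range. The means were 398.1 ± 14.5 and 424 ± 24.3 CPM (SD, n = 4 wells), with a log2 fold change of 0.09 (95% confidence interval −0.02 to 0.20; edgeR adjusted p = 0.67).

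*Scn8a* had 180.3, 175.4, 162.6 and 165.4 CPM in vehicle and 229.5, 183.8, 161.0 and 165.5 CPM in MCH replicates 1 to 4, with MCH replicate 1 standing high. Its log2 fold change was 0.11 with MCH replicate 1 and −0.0041 without it. *Scn1a*, the pore mutated in Dravet syndrome, had 77.9, 72.5, 62.4 and 58.6 CPM in vehicle and 78.0, 71.0, 61.2 and 61.2 CPM in MCH. The wells of *Scn1a* followed the replicate numbers and not the treatments, with a log2 fold change of −0.00023 that took either sign across normalizations and an interval from −0.25 to 0.25. *Scn3a*, abundant before birth, had 55.8, 52.4, 65.5 and 57.5 CPM in vehicle and 63.6, 60.4, 62.7 and 65.4 CPM in MCH, with vehicle replicate 3 level with the highest MCH well. The log2 fold change of *Scn3a* was 0.12 (95% confidence interval −0.02 to 0.27; edgeR adjusted p = 0.66).

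*Scn3b* was the beta gene with the smallest p. It had 152.8, 147.3, 160.4 and 156.2 CPM in vehicle and 151.7, 170.3, 167.4 and 169.4 CPM in MCH replicates 1 to 4. MCH replicates 2, 3 and 4 exceeded every vehicle well, and MCH replicate 1 lay among the vehicle values. Over all wells the log2 fold change was 0.10 (95% confidence interval −0.0098 to 0.20; edgeR adjusted p = 0.63). Without MCH replicate 1, edgeR with the block on the division gave 0.13 with an adjusted p of 0.021. *Scn2b* had a log2 fold change of 0.05, and *Scn4b*, *Scn7a* and *Scn11a*, all under 5 CPM, had values from −0.83 to −0.20, each with an interval across 0.

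The HCN genes differed little between treatments, with log2 fold changes of −0.08 for *Hcn4* (95% confidence interval −0.26 to 0.10; edgeR adjusted p = 0.89) and −0.02 for *Hcn3* (95% confidence interval −0.26 to 0.23). *Hcn2* had 111.0, 115.5, 108.8 and 113.2 CPM in vehicle and 113.0, 114.6, 106.2 and 102.9 CPM in MCH replicates 1 to 4. The treatments overlapped, although MCH replicates 3 and 4 lay under every vehicle well. For *Hcn2* the log2 fold change was −0.04 (95% confidence interval −0.14 to 0.06; edgeR adjusted p = 0.91).

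The alpha1 differences were larger in value in replicates 1 and 2 than in replicates 3 and 4. Within replicates 1 and 2 the median MCH minus vehicle difference of the alpha1 genes was 0.26 in log2 CPM, with 8 of 9 genes above 0. Within replicates 3 and 4 it was 0.00098, with 6 of 9 above 0. *Cacna1e* differed by 0.50 in the first pair and by −0.06 in the second, *Cacna1b* by 0.31 and 0.03, and *Cacng5* by −0.58 and −0.15. *Cacna1d* kept its direction, with 0.26 and 0.12. A test of the interaction between treatment and this division in edgeR called 0 of the 36 channel genes, beside 0.0267% of all genes, and the lowest adjusted p was 0.11, for *Cacng5*. Unadjusted p-values of this interaction under 0.05 were held by 5 channel genes, *Cacng5*, *Cacna1b*, *Cacna1h*, *Cacna1e* and *Cacna2d1*, beside 7.6% of all genes. Leaving out MCH replicate 1 gave interaction calls for *Cacna1e* and *Cacng5*, beside 0.172% of all genes, and leaving out MCH replicate 2 for *Cacna1b*, *Cacna1c*, *Cacna1e*, *Cacng5* and *Scn8a*, beside 1.83%, with a single MCH well left on that side in each fit.

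Of the 8 wells, MCH replicate 2 was the highest for 8 of the 36 channel genes and for 11.0% of all genes tested. MCH replicate 1 was the highest for 10 of the 36 channel genes and for 13.4% of all genes tested. Long genes stood high in this well: against vehicle replicates 1 and 2, the median log2 CPM difference was 0.08 over 781 genes spanning more than 200000 bases and −0.05 over 2411 genes of up to 10000 bases, at a mean above 5 CPM. MCH replicate 2 gave 0.03 and −0.02. Many channel genes are long, *Cacna1e* with 493771 bases at chr1:154390731-154884501, *Cacna1d* with 451517 bases at chr14:30039939-30491455 and *Cacna1b* with 159266 bases at chr2:24603887-24763152. *Cacna1e* was 0.67 above vehicle replicates 1 and 2 in this well, *Cacna1b* 0.41 and *Scn8a* 0.37 on the log2 scale. The longest channel gene, *Cacna2d3* with 816922 bases, differed by −0.0081 in the same comparison, and *Cacnb2* with 384821 bases by 0.09. The part of gene length in these values was not tested.

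**Figure D4:**
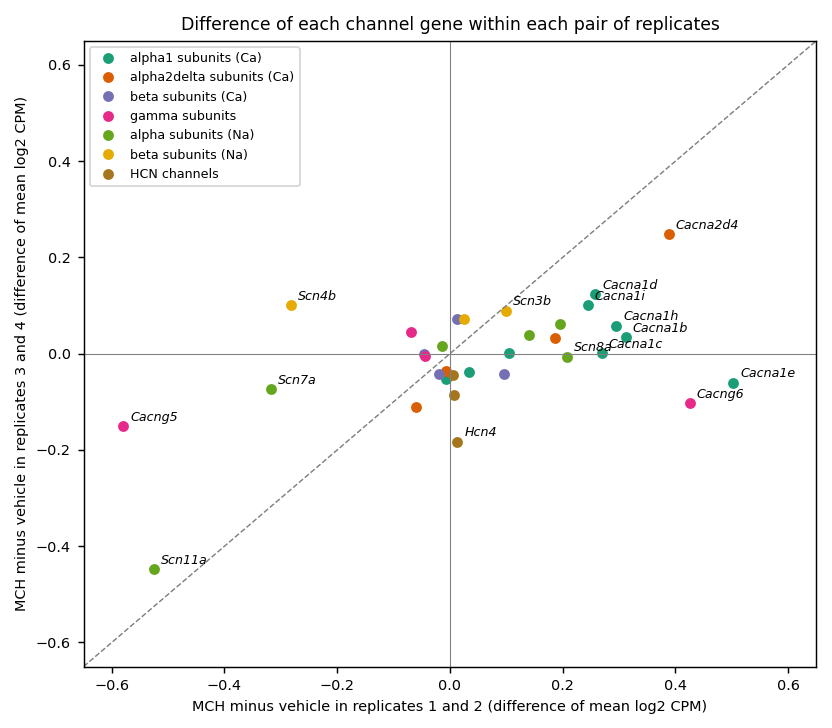
MCH minus vehicle difference of mean log2 CPM within replicates 1 and 2 (x axis) against that within replicates 3 and 4 (y axis) for 33 tested channel genes, coloured by class, with the line of equal differences dashed. Most alpha1 genes lie right of 0 and near 0 in height, *Cacng5* lies far left, and *Cacna1d* is above 0 on both axes.

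Many channel genes differed between the replicate pairs whatever the treatment. In 18 of the 36, the 4 wells of replicates 3 and 4 did not overlap the 4 wells of replicates 1 and 2, beside 29.6% of all genes tested (16.6% higher and 13.0% lower in replicates 3 and 4). Since the division was read from these counts, no test was made. Higher in replicates 3 and 4 were 8 genes, among them *Cacna1g*, *Cacna1i*, *Cacna2d4*, *Cacng4*, *Cacng5*, *Scn7a* and *Scn11a*. Lower in them were 10 genes, among them *Cacna2d3*, *Cacnb2*, *Cacnb3*, *Cacnb4*, *Scn1a*, *Scn8a*, *Scn2b* and *Hcn3*. For *Scn1a* the difference of replicates 3 and 4 from replicates 1 and 2 in log2 CPM was −0.31 in vehicle and −0.28 in MCH wells. The marker sums moved with the same division, and the astrocyte sums are given above. Fibroblast and vessel markers summed to 17.6 to 23.8 CPM in replicates 1 and 2 against 52.5 to 57.3 CPM in replicates 3 and 4, oligodendrocyte lineage markers to 57.4 to 67.9 against 126.0 to 147.5 CPM, and progenitor markers to 22.2 to 29.5 against 65.5 to 79.8 CPM. Neuronal markers went the other way, with 8307 to 8505 CPM in replicates 1 and 2 against 7718 to 7925 CPM, as did glutamatergic ones with 3149 to 3555 against 2636 to 2798 CPM and inhibitory ones with 2890 to 3127 against 2342 to 2609 CPM. Their part in the channel gene values was not tested.

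At the level of transcripts, 103 of the 249 annotated transcripts of channel genes were tested among 33527. EdgeR called 0 of the 103 without a block, with the replicate block and with the block on the division, beside 0.0%, 0.0% and 0.0179% of all transcripts. Without a block, 3 of the 103 had an unadjusted p under 0.05, beside 4.4% of all transcripts. The lowest adjusted p of the 3 edgeR fits was 0.56, for *Scn3b-201*, which carries 79.8% of the *Scn3b* TPM and averaged 3517 ± 153 estimated reads in vehicle and 4013 ± 166 in MCH wells (SD, n = 4 wells). Transcript estimates are less certain than gene counts, since reads common to several transcripts are divided by a model.

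The exon pairs shown above were read as the share of TPM in transcripts holding the upstream exon. These shares are model estimates over whole transcripts, not counts of reads on the exon, and are given as a description. The L-type genes differed from each other. In *Cacna1c* the upstream exon had 79.9, 85.6, 86.7 and 88.7% in vehicle and 89.2, 89.7, 84.0 and 86.5% in MCH replicates 1 to 4, a clear majority. In *Cacna1d* it had 56.2, 47.1, 59.9 and 55.5% in vehicle and 45.7, 42.0, 59.7 and 56.7% in MCH, so that both versions were present in like amounts. The treatments overlapped in both of these pairs. Averaged over both treatments, replicates 1 and 2 held a *Cacna1d* share of 47.7% against 58.0% for the other pair.

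The pair of the N-type gene could not be read in the same way. *Cacna1b* holds a pair of 97 bases at chr2:24626823-24626919 and chr2:24625238-24625334, which codes for part of the proximal C-terminus. Its upstream version, annotated in a short model alone, had 0 to 2.79% of the TPM.

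**Figure D5:**
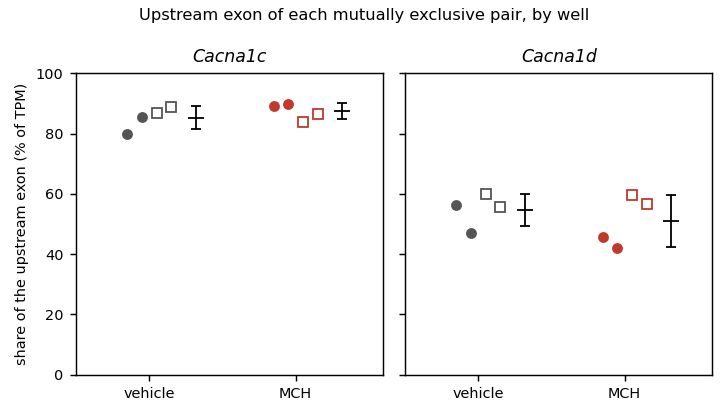
Share of TPM (%) in transcripts holding the upstream exon of the pair in *Cacna1c* and *Cacna1d*, by well, with replicates 1 and 2 as filled circles, replicates 3 and 4 as open squares, vehicle in grey, MCH in red, and mean with SD (n = 4 wells). *Cacna1c* lies between 79.9 and 89.7% and *Cacna1d* between 42.0 and 59.9%.

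The partners of these channels were read from 9 lists of 60 genes, of which 52 were tested. They cover RGK GTPases that inhibit calcium channels, STAC adaptors, FGF homologous factors of sodium channels, the scaffold of the axon initial segment, HCN partners, the NALCN sodium leak complex, calmodulin and related sensors, calcium stores and exchange, and the sodium pump. EdgeR without a block called 0 of the 52, beside 0.234% of all genes. In that fit 3 of the 52 had an unadjusted p under 0.05, namely *Orai1*, *Rem2* and *Atp2b1*, beside 8.5% of all genes. The median log2 fold change of the 52 was 0.02, with 22 of 52 below 0.

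*Orai1*, the pore of store-operated calcium entry, was the one partner of 52 called with a block, beside 3.98% of all genes with the replicate block and 4.46% with the block on the division. It had 12.12, 12.03, 11.49 and 10.25 CPM in vehicle and 8.94, 8.97, 8.48 and 8.92 CPM in MCH replicates 1 to 4. Every MCH well lay under every vehicle well, as for the partners *Rem2*, *Rrad* and *Atp1b3* and for 2.96% of all genes tested. The means were 11.5 ± 0.86 and 8.83 ± 0.23 CPM (SD, n = 4 wells), with a log2 fold change of −0.38 (SE 0.07; edgeR adjusted p = 0.12). The edgeR adjusted p was 0.0097 with the replicate block and 0.0051 with the block on the division. *Rem2*, an RGK protein induced by neuronal activity, had 24.9 ± 1.70 CPM in vehicle and 22.3 ± 0.70 CPM in MCH, and *Atp2b1*, a plasma membrane calcium pump, 561 ± 11.0 and 598 ± 26.5 CPM (SD, n = 4 wells), with edgeR adjusted p-values of 0.49 and 0.56. In the axon initial segment list, with the ankyrin G gene among its 5, all 5 genes had log2 fold changes above 0 with a median of 0.07 and none was called in any of the 3 edgeR fits. Their summed level ran from 1924 to 1993 CPM in vehicle wells and from 1894 to 2535 CPM in MCH wells. MCH replicate 1 held the highest of these sums, and without it the MCH wells ran from 1894 to 2082 CPM, the median log2 fold change of the list was 0.02 and 4 of the 5 genes were above 0.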

How the data were processed

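Gene counts and transcript tables of 8 libraries of poly-A RNA, 4 vehicle and 4 MCH wells, were used as deposited. Per the labels and the study's methods, the authors made stranded libraries, quantified reads with Salmon in nf-core/rnaseq 3.0 on GRCm38 and tested genes with DESeq2. The gene values are estimated counts that the authors summed from the Salmon output. The TPM values deposited for each transcript are scaled by Salmon to effective transcript length. The annotation release is not given in the sources used here, and symbols, transcript names and sequences come from GENCODE vM21, which matched 98.8% of genes and 98.7% of transcripts.

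Estimated counts were rounded and tested with edgeR 4.0.16 in R 4.3.3 (TMM factors, quasi-likelihood F test, robust dispersions, filterByExpr with a minimum count of 10 and a total of 15), without a block as the study states none, with Benjamini-Hochberg adjustment over all features tested at a threshold of 0.05. CPM use the same factors, and log2 CPM within replicate pairs have 0.5 added. Alternatives were RLE factors, other filters, DESeq2 1.42.0, limma 3.58.1 voom, a length offset, the replicate number or the replicate pair division as a block, the interaction of that division with treatment, and leaving out each well. Fits were tested on simulated data. The replicate number counts as a block because same-numbered wells deviated together in all 4 pairs, with correlations of 0.445 to 0.545 of their deviations from the treatment means. The same division held different numbers together too, at 0.475 to 0.521, so no pairing by number beyond the division was shown. Replicates differed by more than counting noise (mean chi-square per gene 2.9 to 28.3), so none was merged. Values were printed by well for members called without a block or with either edgeR block, for the 12 smallest p-values and for listed pore-forming genes, 17 in all, and partners and transcripts only where called in one of these 3 fits. *Rem2*, *Rrad*, *Atp1b3*, *Atp2b1*, *Scn3b-201* and the genes of the replicate division were named after their values were seen. The exon pairs and the 2 fits that combine a block with leaving out wells were likewise added after values were seen. Single values of 3 tested members and some exon sequences are not reported here, while all counts, class values and fits include these members. The members and all lists were chosen with earlier results of these data known. The partner symbols *Irag1*, *Irag2* and *Fam155b* were not matched in the table.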

Additional observations from a re-analysis of the deposited data

Results flagged for a closer look

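Among 40 groups of 4 wells examined for a well far from the other 3, 4 stood out, and chance alone gives about 1 in 20. *Cacna1a* counted 129.6 CPM in vehicle replicate 1, against 125.0 to 125.3 CPM in the other vehicle wells. *Cacna1c* counted 123.0 CPM in vehicle replicate 2, against 136.5 to 136.9 CPM in the others. *Scn3b* counted 151.7 CPM in MCH replicate 1, against 167.4 to 170.3 CPM in the other MCH wells. The upstream exon of *Cacna1b* had a share of 2.29% in MCH replicate 3 and 0% in the other MCH wells, a value that rests on a single transcript model of 332 bases.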

How the results depend on the processing

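The count of 0 channel genes called stayed at 0 under RLE factors, both other filters, DESeq2, limma voom, the length offset and each of 8 fits without 1 well (0 to 0). The replicate block, with same-numbered wells paired, gave 2, and the block on the replicate division gave 1 in edgeR, 3 in DESeq2 and 1 without MCH replicate 1, that last fit chosen after seeing the data. The interaction count of 0 ran from 0 to 5 without 1 well: 2 without MCH replicate 1 (*Cacna1e*, *Cacng5*; background 0.172%) and 5 without MCH replicate 2 (*Cacna1b*, *Cacna1c*, *Cacna1e*, *Cacng5*, *Scn8a*; background 1.83%), each leaving 1 MCH well on that side, assumed to vary like the others. Transcript calls stayed at 0 in all alternatives. Class shares of TPM moved with the treatment of length. Over transcripts of at least 500 bases *Cacna1b* held 18.9%, *Cacnb4* 12.9% and *Scn2a* 62.1%, against 27.8%, 34.3% and 56.4%. By counts per kilobase of the longest transcript, *Cacna1b* held 20.3%, *Cacna2d3* 55.6%, *Cacnb4* 14.7% and *Hcn2* 43.4%, against 51.6% for *Cacna2d3* and 40.7% for *Hcn2* in the main values. Over transcripts of at least 2000 bases, a setting chosen after seeing the data, *Cacna1b* held 21.7%, *Cacna2d3* 53.4%, *Cacnb4* 13.8% and *Hcn2* 44.4%. Without 1 well these shares kept within 27.2 to 28.6% for *Cacna1b*, 33.1 to 35.7% for *Cacnb4* and 55.8 to 57.3% for *Scn2a*. The log2 fold change of *Scn1a* turned from −0.00023 to 0.0055 with at least 10 counts in 4 wells, 0.00030 in DESeq2, 0.0016 with RLE factors, 0.0090 with the length offset, 0.0027 in limma voom, 0.0076 without a filter, 0.00036 with the replicate block, 0.0011 with the block on the division and 0.0016 with it in DESeq2, and ran from −0.071 to 0.079 without 1 well, with 0.054 without MCH replicate 3 or 4, 0.079 without vehicle replicate 1 and 0.038 without vehicle replicate 2. That of *Scn8a* turned to −0.0041 without MCH replicate 1 (range −0.0041 to 0.18). Over the settings with all 8 wells the adjusted p of *Cacna1d* ran from 0.022 to 0.50. The exon share of *Cacna1c*, an addition made after seeing the data, was 91.0% from estimated reads. Causes of these changes were not tested. Low counts limit *Scn11a*, *Scn7a* and *Scn4b*. The confidence intervals of the log2 fold changes come from the edgeR fits and include the spread between wells.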
